A study of Mus musculus with 4 samples.

Results

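The 8 genes described here serve the blood vessel wall of the heart. Flt1, Ptprb, Cdh5 and Rasip1 are known from endothelial cells, Pdgfrb, Lmod1 and Smtn from the mural cells around them (pericytes and smooth muscle), and Kitl is a growth factor that endothelial cells make. They were taken by gene symbol from 2 lists of N6-methyladenosine (m6A) sites and are 8 of the 6660 genes with a site in either list. The lists come from hearts of ABRO1 knockout mice, which lack a scaffold protein of the BRISC deubiquitinase, and of wild-type mice, both on a C57BL/6 background; the labels do not state age, sex, the number of animals or how the knockout was made. Each list was called by the authors from 1 immunoprecipitate with an antibody against m6A and 1 input library of the same genotype. With 1 library of each kind per genotype there is no replicate error and no test between genotypes, and every difference below is a difference between the 2 lists.

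m6A is a methyl mark that a nuclear writer complex sets on mRNA and that reader proteins recognise, with effects on splicing, stability and translation. In mammalian transcripts it is densest around the stop codon and along the last exon. In vessels, VEGF receptors and VE-cadherin govern the growth and tightness of the endothelium, PDGF from the endothelium recruits pericytes through PDGFRB, and smooth muscle cells set vessel tone through their actin filaments.

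A site here is an interval with a fold and a score from the authors' peak caller. The fold is the linear enrichment of the immunoprecipitate relative to the input. The score is 10 times the negative log10 of the caller's p, so that a higher score stands for a smaller p. The wild-type list held 10814 sites with a median fold of 9.35 and the knockout list 10388 sites with a median fold of 7.96; the median scores were 266 and 270. A score of 3100 was the commonest value in both lists, so the sites that share it were not ranked among themselves by score. It was not the ceiling, as the highest scores were 3233 in the wild-type and 3230 in the knockout list. Read counts were not part of the lists, so depth is unknown, and a fold in one list beside a fold in the other does not measure a change. A missing site can go with less m6A, less RNA per cell or fewer cells of that type, and these cannot be told apart.

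The 8 genes held 10 wild-type and 11 knockout sites. Cdh5, Rasip1, Pdgfrb and Lmod1 had a site in both lists. Kitl had one in wild type alone, and Flt1, Ptprb and Smtn in the knockout alone. Over all genes with a site, 14.0% were listed in wild type alone and 11.6% in the knockout alone. Of the member sites, 3 wild-type and 4 knockout sites were without a counterpart in the other list, where one shared base on the same strand counted as overlap. This was the case for 22.8% of all wild-type and 19.6% of all knockout sites. The 8 genes were chosen with earlier results of these data known, so these shares cannot show whether vessel genes stand out.

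Sequence could be read for the 50 bases after the gene start of 5 of these genes, from a RefSeq table of gene starts on GRCm38.p6, the assembly also called mm10. For Flt1 and Kitl that start lies inside the annotated span of the gene and not at its outer edge. These bases lay inside a site of both lists for Lmod1, of the knockout alone for Flt1 and Smtn, of wild type alone for Rasip1 and of neither list for Kitl. The site over the Rasip1 start was weak (fold 4.73, score 57.8) and was assigned to another gene, Izumo1, so it is not among the member sites. The stretches below are those inside a site of one list only. Each is 30 bases, 5′ to 3′ on the strand of the gene, with GGAC, the most frequent core of m6A sites in mammals, in capitals.
Flt1, chr5:147725962-147725991, minus strand: cggagcgcggtggcGGACactcccgggagg
Smtn, chr11:3539252-3539281, minus strand: ggctggcgccgcgGGACaggcgtctgcagc
Rasip1, chr7:45627557-45627586, plus strand: cagggcctccgggtgctacgGGACccgaag
GGAC began at base 35 of Flt1, 25 of Smtn and 41 of Rasip1, counted from the start in that table. Kitl also held it in these 50 bases, outside any site, and Lmod1 did not hold it. Read on the other strand, as GTCC, it was present in Flt1, Smtn and Lmod1; the letters cannot overlap with GGAC. Of 32851 gene starts in the table, 18.9% held GGAC and 17.4% GTCC in these 50 bases. Among starts inside a knockout site the shares were 19.4% and 18.7%, and inside a wild-type site 19.7% and 18.9%. Inside a site of the knockout list only they were 19.9% and 19.6%, and of the wild-type list only 21.3% and 20.4%. These shares were close to those over all starts. Which base of a site carries a mark was not determined, so GGAC in a stretch does not place m6A there.

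Among the endothelial receptors, Flt1 encodes VEGF receptor 1, which binds VEGF-A, VEGF-B and placental growth factor and limits their action on VEGF receptor 2. Its only site was in the knockout list, on chromosome 5 from 147725671 to 147726011 on the minus strand. This 341 bp site had a fold of 11.29, above 71.6% of the knockout sites, and a score of 218, above 44.7% of them. The wild-type list held no site in the 164835 bp of the gene. By score, Flt1 stood at place 116 of the 772 genes listed in the knockout alone. The midpoint of the site lay at 0.362% of the gene span from the 5′ end. The annotated span began 427 bp upstream of the site, and the upstream edge of the site fell exactly on the start in the table of gene starts.

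Ptprb encodes VE-PTP, an endothelial phosphatase that acts on the angiopoietin receptor TIE2 and on the VE-cadherin complex. It had one weak site, in the knockout list, on chromosome 10 from 116283414 to 116283877. The fold was 4.14, above 7.79% of the knockout sites, and the score 145, above 33.5%. The site began 7912 bp into a gene of 114037 bp and was assigned to a UCSC transcript, whereas the other sites of the 8 genes carried RefSeq or Ensembl transcripts.

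Cdh5 encodes VE-cadherin, the adhesion molecule of endothelial junctions. It had 4 wild-type and 2 knockout sites, all on the plus strand of chromosome 8. The strongest, from 104142481 to 104144502, was 2022 bp long, ended 2 bp before the end of the gene and had a fold of 21.86 in the wild-type and 18.41 in the knockout list, with a score of 3100 in each. A second site from 104112880 to 104113102 had almost the same values in both, with folds of 6.40 and 6.13 and scores of 274 and 272. Both of these pairs had identical edges in the 2 lists.

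The other two Cdh5 sites were weak and listed in wild type alone. One, from 104101625 to 104101732, began 12 bp into the gene, and its fold was 4.90 and its score 152. The non-coding gene Gm29682, for which the table gives no strand, overlaps it. For the other, from 104140684 to 104140929, the fold was 4.15 and the score 118. Those folds exceeded only 7.90% and 3.12% of the wild-type sites. The peak caller numbered its sites in genome order and the lists hold a part of the numbers. Between the 2 knockout sites of Cdh5, which flank the place of the second weak site, exactly 1 number is not in the list. Between the flanking knockout sites of the first there are 13. Whether one of these unlisted sites lay at either place cannot be read from the lists. Of the 4955 genes in both lists, 16.9% had fewer sites in the knockout list and 2.89% had at least 2 fewer, as Cdh5 had.

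Rasip1 encodes a RAS-interacting protein that binds RAP1 and is needed for the vessel lumen. Its site at the end of the gene, on chromosome 7 from 45638685 to 45639093, had identical edges in both lists. The fold was 11.74 in wild type and 7.85 in the knockout list, and 75.9% of all overlapping pairs had a lower ratio of the wild-type to the knockout fold. The score was 378 against 75, a ratio of 5.03, and at least as large a ratio occurred in 134 of the 8370 overlapping pairs of the lists. With sites under a score of 100 left out, Rasip1 joined Kitl as a gene listed in wild type alone. This pair was singled out after its values were seen. In its own list, the wild-type site scored above 58.4% of sites and the knockout site above 13.1%. The annotated non-coding gene A030001D20Rik overlaps the first part of this site; the table gives no strand for it.

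A further wild-type site reached into Rasip1 under another name. It ran from 45627142 to 45627906 on the plus strand and was assigned to Izumo1, a sperm protein needed for fusion with the egg. Of its 765 bp, 101 lay in the annotated span of Izumo1 and 370 in that of Rasip1, with 294 bp of neither gene between them. It was weak, at a fold of 4.73 and a score of 57.8, and the knockout list held no site there. The table's window around the start of Rasip1, 300 bases in all of which 250 precede the start, lay wholly inside this site. It held GGAC 5 times. Those at bases -215, -108, -9 and -3 lay before the annotated start of Rasip1, and only the one at base 41 lay in the gene. At least 1 GGAC, a lower bar than 5, stood in 65.6% of all such windows. Counted by overlap with the gene span instead of by symbol, Rasip1 thus had 2 wild-type sites and 1 knockout site.

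Pdgfrb encodes the PDGF receptor beta of pericytes and other mural cells and fibroblasts. It had a single site of 1847 bp on chromosome 18 from 61083221 to 61085067, with the same edges in both lists and its end at the last annotated base. The fold was 30.08 in wild type and 27.77 in the knockout list, above 93.6% and 94.7% of the sites of the list. The score was 3100 in both.

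Lmod1 encodes leiomodin 1, which nucleates actin filaments in smooth muscle. It was the most strongly enriched of the 8 genes in both lists and had 3 sites in each, all overlapping. The site from 135363670 to 135365169 on chromosome 1 had folds of 98.26 and 74.39, each above 99.5% of its list, and a score of 3100 in both. At the start of the gene, the site from 135324807 to 135325270 had nearly equal folds of 21.58 (wild type) and 21.83 (knockout), while the score was 766 in wild type and 1321 in the knockout list. Near the end of the gene, the site that began at 135366082 was 829 bp long in the wild-type list, at a fold of 16.78 and a score of 338. In the knockout list it was 741 bp long, and the fold was 9.17 and the score 309.

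Smtn encodes smoothelin, an actin-binding protein of contractile smooth muscle, and was listed in the knockout alone. Its stronger site, on chromosome 11 from 3539112 to 3539323 on the minus strand, covered the annotated start of the gene and reached 31 bp beyond it. Its fold was 9.32 and its score 247. The second, from 3537323 to 3537436, had a fold of 4.23 and a score of 53.4, above 1.88% of the knockout sites. The non-coding gene Gm11946 overlaps both. The library kits named in the sources keep the strand, but the table gives no strand for Gm11946, so whether its reads could count here was not determined.

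Kitl encodes KIT ligand, or stem cell factor, which acts on KIT-bearing cells such as mast cells and blood progenitors. Its only site was in the wild-type list, on chromosome 10 from 100096018 to 100097366. This site of 1349 bp had a fold of 13.69, above 72.3% of the wild-type sites, and a score of 2576, above 89.7%. Among the 2464 wild-type sites without an overlapping knockout site, 98.9% had a lower score, and Kitl was at place 10 of the 933 genes listed in wild type alone. Between the knockout sites that flank this place, in Dusp6 and Tmtc3, 8 numbers are not in the list. For the genes listed in the knockout alone, the wild-type list leaves out 25 numbers around the place of Flt1, 19 around that of Ptprb and 27 around the Smtn sites. Each of these stretches reaches far beyond the gene, as from 147111323 to 148076180 for Flt1 and from 99264091 to 100446271 for Kitl. An unlisted number there need not belong to the gene. The deposited false discovery rate of the Kitl site was 87.69%.

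**Figure D1:**
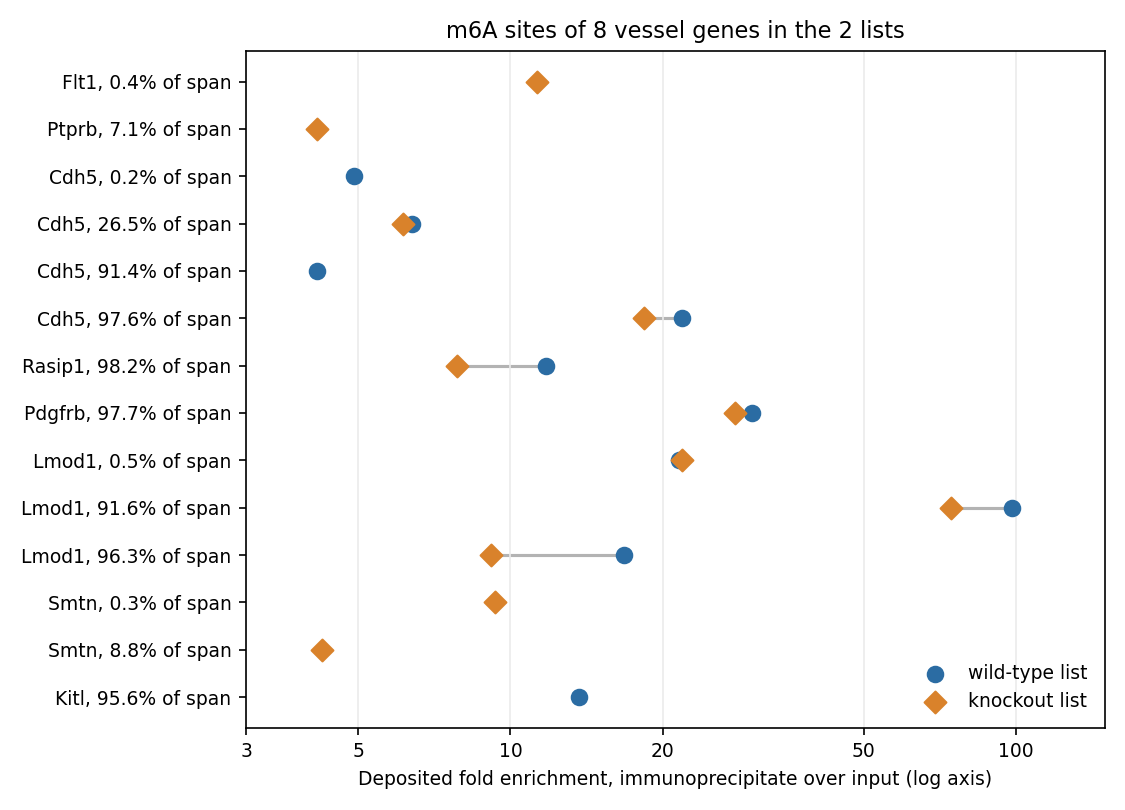
Deposited fold enrichment (log axis) of every m6A site of the 8 genes, 1 row per site, labelled with the position of its midpoint along the gene. Circles are wild-type and diamonds knockout sites, with a line between overlapping sites; the Lmod1 site at 91.6% stands highest at 98.26 and 74.39, and 7 rows hold a symbol of one list only.

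The plot of folds by site shows 7 pairs of overlapping sites. The fold was higher in the wild-type list in 6 of the 7, and slightly lower in 1, the Lmod1 site at the gene start. Over all 8370 overlapping pairs the wild-type fold was the higher one in 73.7%, with a median ratio of wild-type to knockout fold of 1.22 (quartiles 0.988 and 1.48). The median ratio of the 7 pairs was 1.19. When each fold was divided by the median over the pairs of its own list (10.6 and 8.77), the wild-type value was higher in 3 of the 7 pairs and in 51.2% of all pairs. Those 3 were the Rasip1 site and the Lmod1 sites near the end of the gene. Edges were identical in 6 of the 7 pairs, against 70.5% of all pairs. By largest fold, the genes in both lists stood in the same order in each list, Lmod1, Pdgfrb, Cdh5, Rasip1; without replicates it is unknown which neighbours in that order differ beyond error.

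**Figure D2:**
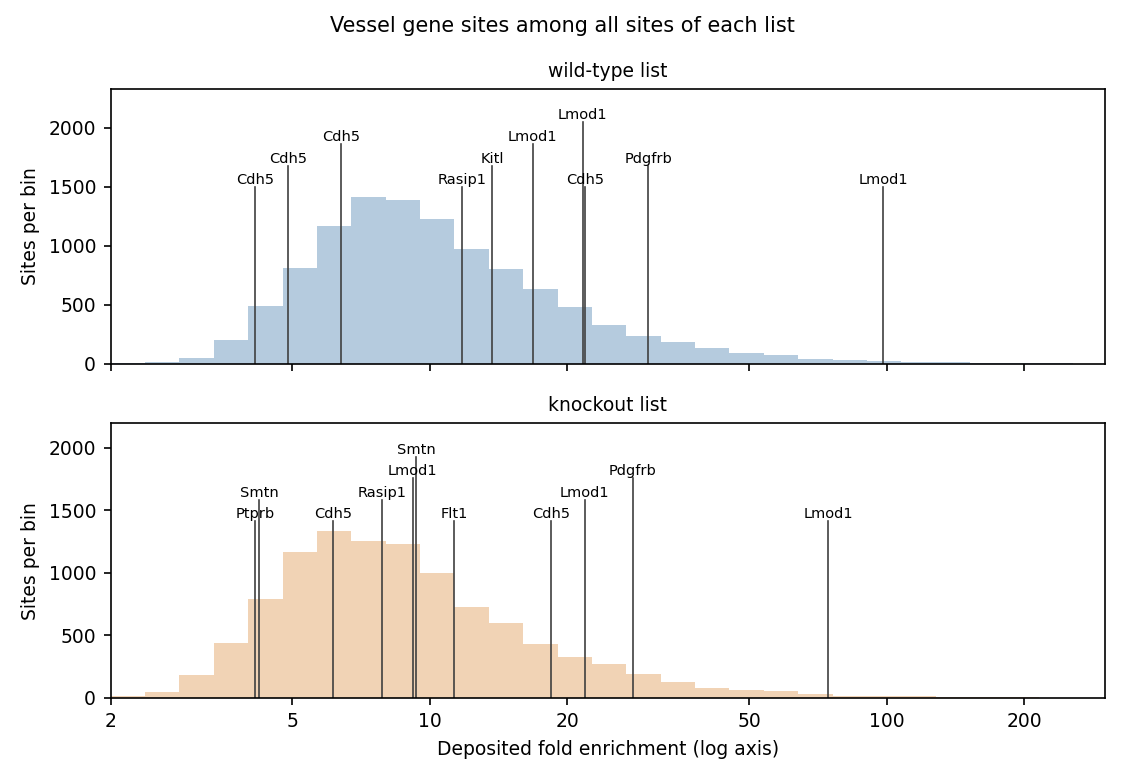
Number of sites per bin of fold enrichment (log axis) for all wild-type sites (top) and all knockout sites (bottom), with a line at the fold of each site of the 8 genes; line heights only separate the names. The Pdgfrb site, the strongest Cdh5 site and the Lmod1 sites at 0.521% and 91.6% of the gene lie in the upper tail of both lists. The third Lmod1 site lies lower, at 16.78 and 9.17, and the Ptprb site and the weaker Smtn site lie in the lower part of the knockout list.

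The sites of the 8 genes gathered near the gene ends, apart from 1 overlapping pair in Cdh5 at 26.5% of the span. Of the 7 overlapping pairs, 1 (Lmod1) lay in the first 10% of the span and 5 in the last 10%. Over all overlapping sites that could be placed, the shares were 21.2% and 22.7% in each list. The 4 knockout sites without a counterpart, in Flt1, Ptprb and Smtn, all had their midpoint in the first 10% of the gene span, at 0.342% to 8.79%. Over all such knockout sites that could be placed, 24.9% lay in that part. Of the 3 wild-type sites without a counterpart, 1 (Cdh5) lay in the first 10%, against 20.7% of all such sites. The other two, in Cdh5 at 91.4% and in Kitl at 95.6%, lay in the last 10%, against 24.4%. Spans include introns, so these are not positions in the mature mRNA, and whether a site is coding or untranslated was not determined.

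**Figure D3:**
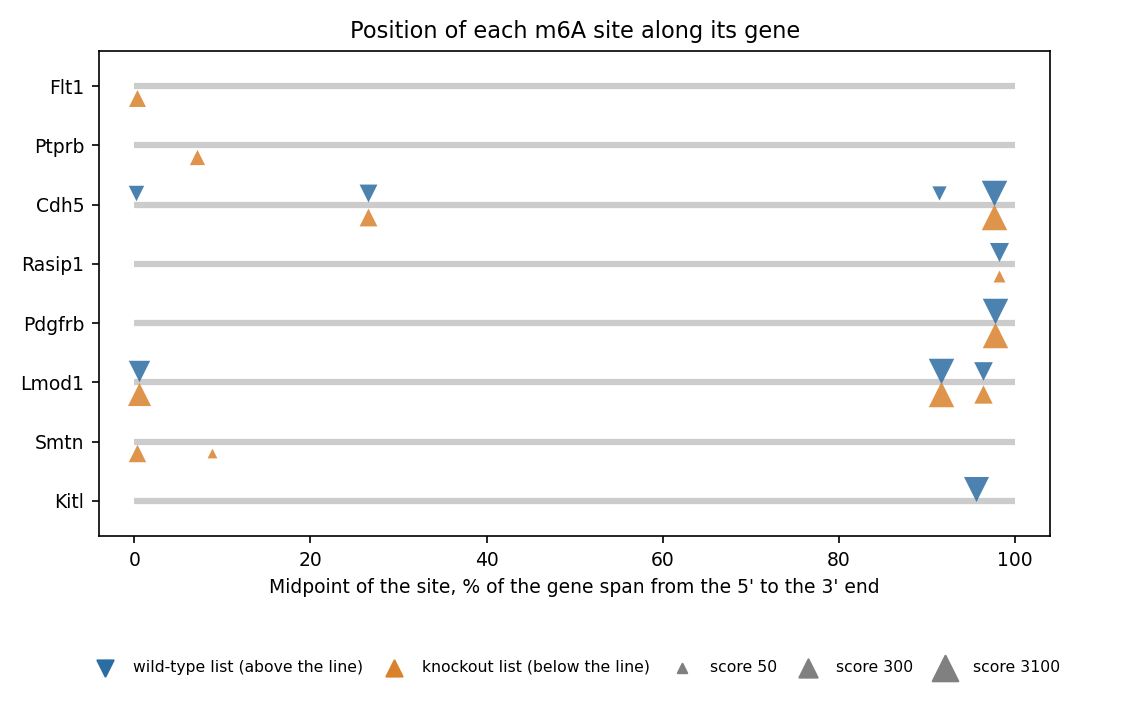
Midpoint of each site as a percentage of the gene span (0 is the 5′ end), with wild-type sites above and knockout sites below the line of each gene and symbol size growing with the log of the score. Most sites lie near an end of the gene; Flt1, Ptprb and Smtn have knockout sites in the first 10% only, and the sites with a score of 3100 all lie beyond 90%.

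The longest sites lay near the 3′ ends. The sites of Cdh5, Pdgfrb, Lmod1 and Kitl with a length of 2022, 1847, 1500 and 1349 bp all lay beyond 90% of the span, where the other sites were 246 to 829 bp long. The sites in the first 10% were 108 to 464 bp long. The lists as a whole had the same outline, with a median of 956 bp in the last 10% and 280 bp in the first 10% of the span in the wild-type list, and 889 and 276 bp in the knockout list. The median folds of these parts went the other way, 9.43 and 10.2 in wild type and 7.74 and 8.73 in the knockout list.

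The pathways around the 8 genes were described with 10 gene lists holding 137 genes in all. A site was listed for 95 of them. The 2 lists shared 78, another 7 were listed in wild type alone and 10 in the knockout alone. Without the 8 genes themselves, 74 of 87 were shared, 6 (6.90%) were listed in wild type alone and 7 (8.05%) in the knockout alone, against 14.0% and 11.6% over all genes with a site. For genes in both lists the strongest wild-type site is given below with the knockout site that overlaps it, the wild-type fold first. Choosing by the wild-type score favours that list.

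Of 10 VEGF ligands and receptors, 9 had a site, 8 in both lists, and Flt1 was the only one listed in the knockout alone. The co-receptors Nrp1 and Nrp2 had folds of 28.51 and 18.74 in wild type and 19.56 and 14.55 in the knockout list. Vegfa, the main ligand of the pathway, had 13.04 and 9.47. Of 7 genes of the angiopoietin system, only Ptprb, Angpt2 and Svep1 had a site. Angpt2, an antagonist ligand of TIE2, had folds of 11.24 and 16.88, and Svep1, a matrix protein that binds TIE1, had 19.75 and 12.05. The receptors Tek and Tie1 had no site in either list.

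Of 15 endothelial junction genes, 10 were in both lists and 1, Jup, in the knockout alone. Jup, or plakoglobin, links cadherins to the cytoskeleton and had a fold of 5.31 and a score of 66.3. Afdn, the actin-binding afadin of junctions, was listed under its older symbol Mllt4 with folds of 116.25 and 100.69. Cgnl1, or paracingulin, had 15 wild-type and 13 knockout sites, and its strongest wild-type site, with a fold of 46.57, overlapped no knockout site. Its highest-scoring knockout site had a fold of 19.65 and a score of 3110.

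Of 12 genes around Rasip1 and RAP1, 6 were in both lists. Arhgap29, which encodes a binding partner of RASIP1, was listed in wild type alone, with a site of 1287 bp on chromosome 3 from 122014101 to 122015387, a fold of 8.49 and a score of 1618. Rapgef3, the cAMP-activated exchange factor EPAC1 that loads RAP1, was also listed in wild type alone (fold 12.89, score 273). Rap1a itself was listed in the knockout alone, with a weak site (fold 4.50, score 56.4).

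Of 41 endothelial identity genes, a site was listed for 24, of which 21 were shared. Ephb4, the venous receptor for ephrin-B2, was listed in the knockout alone (fold 4.37, score 197). Ece1, which activates endothelin, was listed in the knockout alone too, with 2 sites, the stronger with fold 4.24 and score 67.8. The transcription factor Tal1 was listed in wild type alone (fold 7.09, score 135). The 5 PDGF genes that carried a site were all shared. Pdgfa had folds of 13.81 and 15.93 and Pdgfb 6.55 and 5.17. Pdgfra had 5 wild-type and 4 knockout sites. Its strongest wild-type site (fold 9.96, score 570) overlapped no knockout site, and its highest-scoring knockout site had a fold of 14.29 and a score of 274.

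Of 12 pericyte genes, 7 were in both lists and Notch3, a receptor of mural cells, was listed in wild type alone (fold 13.96, score 1521). The potassium channel subunits Abcc9 and Kcnj8 had folds of 6.91 and 6.06 in wild type and 4.48 and 6.13 in the knockout list. Of 23 genes in the smooth muscle list, 13 were in both. The myosin light chain Myl9 was listed in the knockout alone (fold 15.73, score 306), as was the actin cross-linker Flna (fold 4.43, score 70.1). Ldb3 was listed in wild type alone (fold 6.82, score 79.7). It is a Z-disc gene of heart muscle, so its site need not come from vessels.

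Of 10 genes of the leiomodin, tropomodulin and smoothelin families, 6 carried a site, and Smtn alone was not shared. Lmod2 and Lmod3, the leiomodins of heart and skeletal muscle, had folds of 81.93 and 46.43 in wild type and 62.71 and 36.18 in the knockout list. Tmod1, which caps thin filaments, had 29.11 and 17.08. Of 10 genes of the KIT ligand axis, 6 were in both lists. The receptor Kit had no site, Lyn was listed in wild type alone (fold 3.88, score 50.4) and the ubiquitin ligase Cbl in the knockout alone (fold 5.25, score 83.8). The PI3-kinase subunit Pik3r1 had 39.30 and 25.92.

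**Figure D4:**
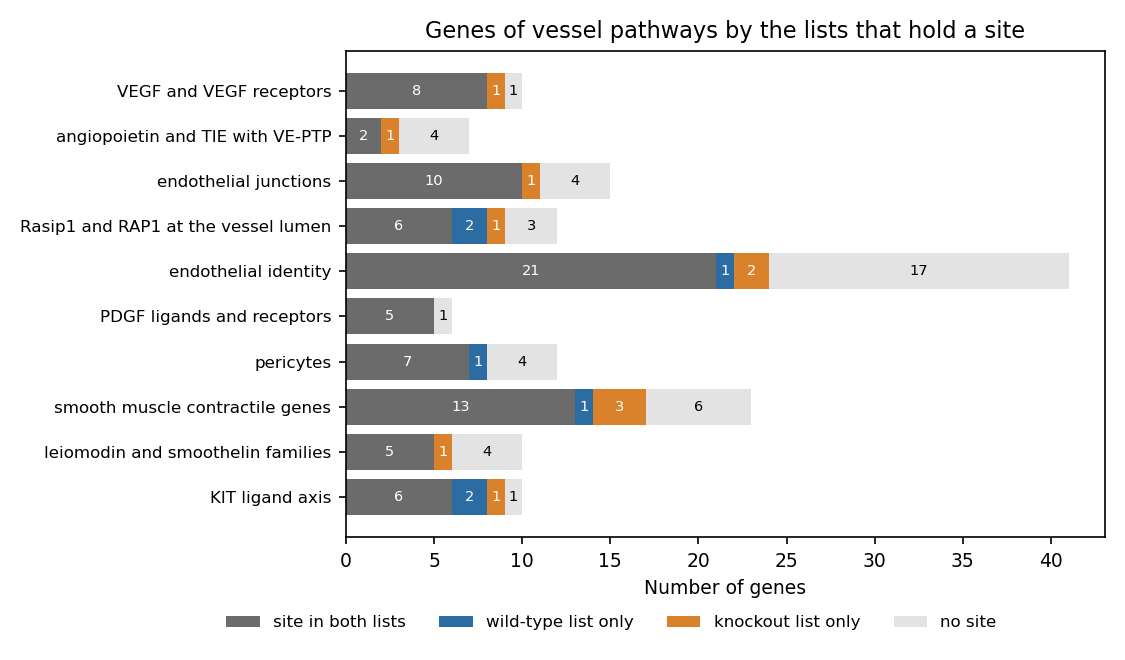
Number of genes of each pathway list with a site in both m6A lists, in one list only or in neither; some genes stand in several pathway lists. In every pathway list most genes with a site had it in both, such as 8 of 9 for VEGF and 21 of 24 for endothelial identity.

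The position seen in Flt1, Ptprb and Smtn recurred in the other pathway genes listed in the knockout alone. For each gene in a single list, the site with the highest score was taken. In all 7 such genes besides these 3, namely Jup, Rap1a, Ephb4, Ece1, Myl9, Flna and Cbl, it lay at 0.0699% to 1.11% of the span. With the 3 members, 10 of 10 lay in the first 10% of the span and 0 in the last 10%. Over all genes listed in the knockout alone, the shares were 32.2% and 25.4%. Of the 7 pathway genes listed in wild type alone, 0 lay in the first 10%, and 4 in the last 10%, Kitl, Arhgap29, Rapgef3 and Lyn. Over all genes listed in wild type alone, these shares were 23.2% and 28.3%. The comparison was made after the positions of the 8 genes were seen and carries no test. What the antibody bound at the gene starts was not tested either. Of the 10 knockout genes, 5 had a score under 100, Rap1a, Jup, Ece1, Flna and Cbl. With a score of at least 100 required of every site, 6 pathway genes were listed in the knockout alone. The site lay in the first 10% in 5 of them, against 29.3% of all such genes. These 5 were Ephb4, Myl9 and the members Flt1, Ptprb and Smtn, whose positions prompted the comparison. The sixth was Lyve1, a receptor of lymphatic endothelium, whose only wild-type site had a score of 89.6; its strongest knockout site lay at 92.9% of the span. Of 8 genes then listed in wild type alone, 5 lay in the last 10%, against 31.0%, and Steap4, one of those that joined, lay at 0.159%.

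**Figure D5:**
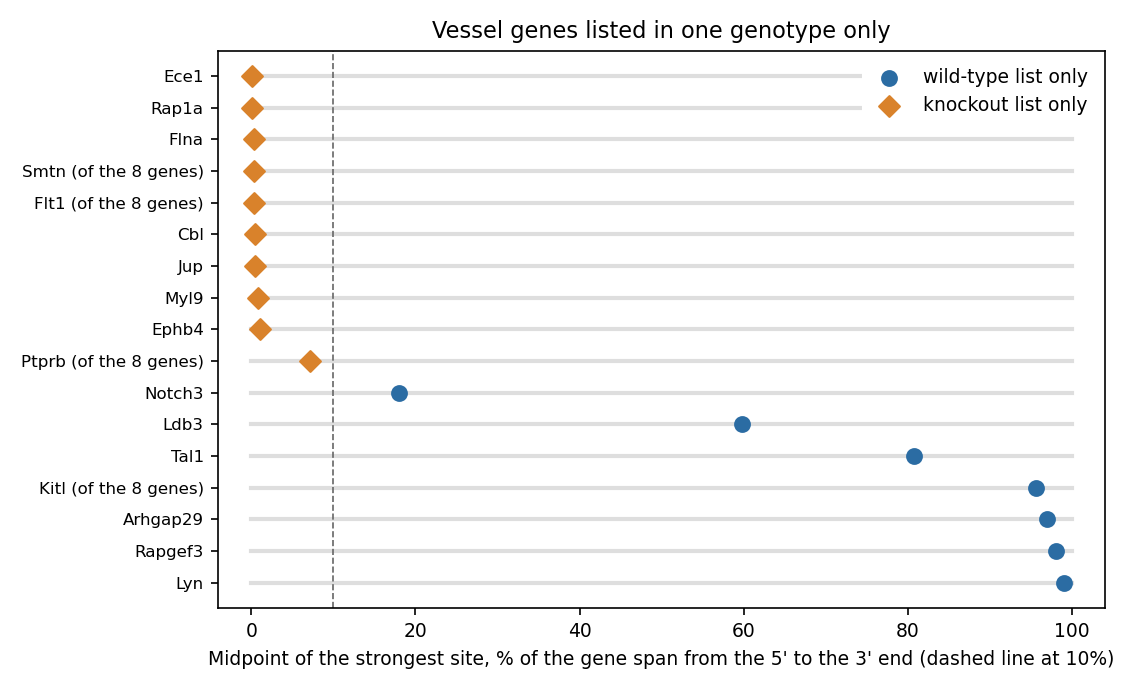
Midpoint of the highest-scoring site, as a percentage of the gene span (0 is the 5′ end), for the 17 pathway genes found in a single list; diamonds are knockout and circles wild-type genes. All 10 knockout genes lie left of the dashed line at 10%, and the 7 wild-type genes right of it, from 18% to 99.0%.

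The lists hold no expression values, so the tissue could only be checked by the markers that carried a site. Of 10 heart muscle markers, 4 had one, Tnnt2, Actn2, Ryr2 and Ttn, each in both lists. Of 8 endothelial and 8 mural markers, 4 and 5 had one, and Flt1 and Smtn were the only ones not in both. Cdh5, Flt1, Pdgfrb, Lmod1 and Smtn among them are members and had a site by the way they were chosen. The markers with a site that are not members were Pecam1 and Kdr (endothelial) and Cspg4 and Myh11 (mural), each in both lists. Among markers of other cells, 5 of 8 for fibroblasts, 2 of 8 for macrophages and blood, 2 of 6 for skeletal muscle, 1 of 4 for adipocytes and 0 of 4 for mast cells had a site. Of these, Col3a1 and Tcf21 were listed in wild type alone and Alas2, Ckm and Adipoq in the knockout alone. The part of cell makeup in the differences was not tested. The deposited false discovery rate was 100% for the 11 knockout sites of the 8 genes and from 83.33% to 100% for the 10 wild-type sites. Of all wild-type sites 82.9% had a value of 100%, as did 10385 of the 10388 knockout sites.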

How the data were processed

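Hearts of 2 genotypes were profiled with 4 libraries, 1 input and 1 m6A immunoprecipitate each. The submitters' processing notes name cutadapt 1.9.3, HISAT2 2.0.4 and the mm10 build. Site names begin with MACS; no source used here states its version or settings. The authors deposited, per the file headers, a score of 10 times the negative log10 of the p-value, a fold enrichment (a ratio) and a false discovery rate, here read as percent. The deposited tables give starts counted from 0; coordinates here count from 1, and strands come from the deposited intervals.

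Overlaps, ranks within a list and positions in RefSeq gene spans (GRCm38.p6) were computed with Python 3.11.15 and pandas 2.3.3. The overlap step was tested on simulated sites. All 8 genes were matched by symbol; 5 had an entry in the table of gene starts. The members, pathway lists and alternatives were chosen with earlier results of these data known. The rule for pathway genes names up to 3 genes per list, starting with genes found in a single list, by score, then those in both by wild-type score, and then fold. Alternatives were a score of at least 100, lists of equal length, stricter overlap and assignment by gene span.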

Additional observations from a re-analysis of the deposited data

How the results depend on the processing

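No paired analysis was possible because there was 1 library of each kind per genotype, and no replicate could be left out. Under the alternatives, 32 of 36 counts stayed within 1.5 times and 21 did not move at all. With a score of at least 100, the knockout site of Rasip1 was lost, so that 2 of the 8 genes rather than 1 were listed in wild type alone, and 6 rather than 10 pathway genes were listed in the knockout alone. In 5 of these rather than 10 the strongest site lay in the first 10% of the span, a count added after the data were seen. Both counts include Flt1, Ptprb and Smtn, whose positions prompted the comparison. With folds divided by the median over all pairs of their list, the wild-type fold was the higher one in 3 rather than 6 member pairs. Lists of equal length, overlap of at least 50% of one or both sites, and assignment by gene span kept the counts of the 8 genes. Equal length raised the lowest wild-type score only to 56.2, below the weakest wild-type member site at 118. Edges were identical in 6 of the 7 member pairs. Equal length and stricter overlap thus had little room to move these counts. Counting any overlap with the span, chosen after the data were seen, added the Izumo1 site to the wild-type count (11). The depth is unknown, so weak sites near the lowest listed score cannot be told from sites just missed in the other list.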
